A study of Mus musculus with 12 samples.

Results

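The miR-30 family in irradiated Lewis lung carcinoma cells was followed through its 5 guide strands, miR-30a-5p, miR-30b-5p, miR-30c-5p, miR-30d-5p and miR-30e-5p. They were chosen by name, as the array entries called exactly mmu-miR-30a-5p, mmu-miR-30b-5p, mmu-miR-30c-5p, mmu-miR-30d-5p and mmu-miR-30e-5p, and all 5 were found among the 576 entries of the array. The cells were LLC1, a cultured mouse line of Lewis lung carcinoma, grown in serum-supplemented DMEM. The groups were untreated control cells, cells given X-rays as a single dose of 2 Gy, cells given 10 Gy at once, and cells given the same 10 Gy as 5 portions of 2 Gy each (5x2 Gy), with 3 arrays each and RNA taken 4 h after irradiation. All groups were this 1 cell line, and the labels describe a group's 3 arrays as biological replicates without naming separate cultures or days, so p-values measure the spread between these arrays.

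A microRNA finds its targets mainly through its seed, a short stretch near its 5′ end, and members of a family share that seed. The miR-30 guides are made from hairpins whose other arm gives the less used 3p strand, and they are known as abundant miRNAs of lung and kidney and of other epithelia. Targets described for them include Snai1 (for miR-30a, in human lung cancer cells), a driver of the epithelial to mesenchymal transition, and the autophagy gene Beclin 1 (for miR-30a, in human cancer cells). In human melanoma, miR-30b and miR-30d target the glycosyltransferase GALNT7. In mouse liver miR-30c targets the lipid transfer protein Mttp, and in human cancer cells miR-30e targets the SUMO-conjugating enzyme Ubc9.

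The mature strands below, from RefSeq with coordinates of GRCm38.p6, are shown because they differ so little outside the seed, which bears on how far separate probes can tell the members apart. Capitals mark the seed, bases 2 to 8. RefSeq's table gave sequences for 3 of the 5 members, while miR-30b-5p and miR-30d-5p are named only. The miR-384-5p strand is shown because it has the same seed and its own entry on the array.
miR-30a-5p: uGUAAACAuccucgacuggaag
miR-30c-5p: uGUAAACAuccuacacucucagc
miR-30e-5p: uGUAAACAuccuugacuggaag
miR-384-5p: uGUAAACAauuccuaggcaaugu

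The seed GUAAACA stood in 4 of 1679 mature names of that table (0.238%), which are these 4. The 3 members had their first 12 bases in common. Counted from the 5′ end, miR-30a-5p and miR-30e-5p differed by C13U alone, with 21 of 22 bases identical. Between miR-30a-5p and miR-30c-5p the differences were C13A, G14C, G18C, G19U and A20C. The files hold no probe sequences, so how much RNA of 1 member binds the probe of another was not tested.

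The members come from paired genes. Mir30a lies at chr1:23272274-23272295 (mature strand, plus strand of GRCm38.p6), beside Mir30c-2 at chr1:23291714-23291736, with 0 annotated genes between them. Mir30c-1 at chr4:120769584-120769606 and Mir30e at chr4:120772660-120772681, both on the minus strand, lie within the protein-coding gene Nfyc, also with 0 other genes between them, and Mir30e overlaps the annotated Mir30f. Mir30b and Mir30d are neighbours on chromosome 15. Because Mir30c-1 and Mir30c-2 give the same mature strand, the miR-30c-5p entry cannot say which of them was used. The Mir30e hairpin, at chr4:120772606-120772697 on the minus strand, shows both arms in capitals, the 5p guide first and the 3p strand after it.
Mir30e: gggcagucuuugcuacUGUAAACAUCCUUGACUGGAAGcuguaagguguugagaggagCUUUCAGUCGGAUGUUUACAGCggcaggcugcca

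The arrays differed in how bright they were, and this touches every value of the family. Brightness here is an array's 75th percentile of signal over the 78 probes detected on all 12 arrays. It was 346, 110 and 703 signal units on the control arrays, 316, 897 and 324 after 2 Gy, 388, 307 and 867 after 10 Gy, and 1088, 1102 and 1004 for the fractionated 5x2 Gy. The 5x2 Gy arrays were thus the brightest 3, and they shared slide 2 and its scan with 10 Gy replicate 3 alone, while the other 8 arrays were on slide 1. Between 48 and 137 entries were detected per array. Fewer cells with a miRNA and less of it per cell cannot be told apart on these arrays. LLC1 is a carcinoma line, but 0 of 5 epithelial marker miRNAs (the miR-200 family) was detected on any array. Of 5 mesenchymal markers, 4 were detected on at least 1 array and 3 on all 12. The summed scaled level of the mesenchymal list was 1.59 to 1.93 in control cells, 1.74 to 2.10 at 2 Gy, 1.97 to 2.20 at 10 Gy and 2.09 to 2.20 for the fractionated dose. Of 5 blood markers, 2 were detected on at least 1 array, and 1 of them, miR-142a-3p, on all 12. Of 2 endothelial markers only miR-126a-3p was detected, on 3 arrays, and of 3 muscle markers only miR-206-3p, on 2. Of 2 liver and nerve markers 0 was detected on any array. The part of other cells in the family's values was not tested.

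All 5 members were above background on every 5x2 Gy array, and on few others. A probe was taken as detected on an array when more than 50% of its spots were well above background, and 6 to 10 spots carried each of the family's probes. The number of members detected was 1, 0 and 4 on the control arrays, 1, 5 and 1 after 2 Gy, 1, 1 and 5 after 10 Gy, and 5, 5 and 5 for the fractionated 5x2 Gy. The arrays outside the 5x2 Gy group with 4 or 5 members detected were control replicate 3, 2 Gy replicate 2 and 10 Gy replicate 3, which are the 3 brightest of those groups. By member, miR-30b-5p was detected on 11 of 12 arrays, missing only on control replicate 2, the dimmest. The other members were detected on 5 (miR-30c-5p) or 6 arrays (miR-30a-5p, miR-30d-5p and miR-30e-5p). These 4 were detected on all 3 arrays of the 5x2 Gy group alone, so they entered the tested set of 118 entries through the group where they were bright. In all, 51 of the 118 tested entries had entered this way.

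**Figure D1:**
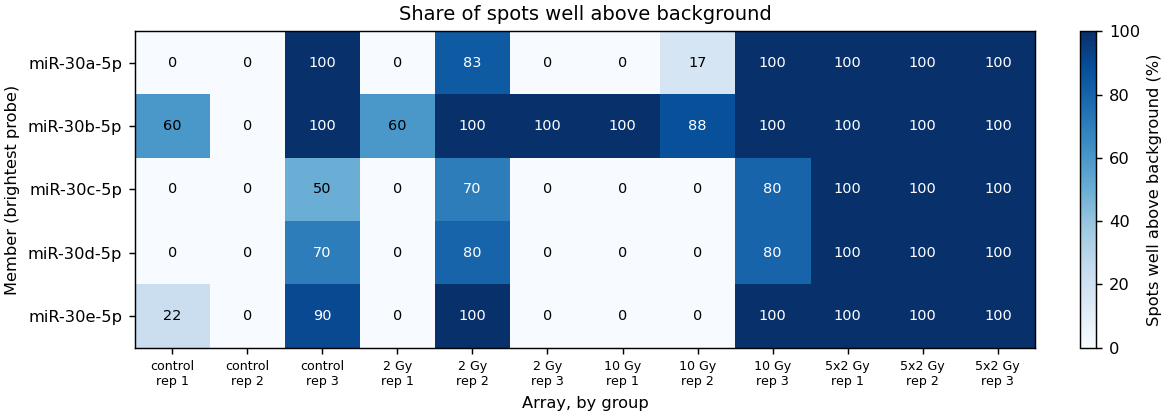
Share of spots well above background (%, colour and printed value) for the brightest probe of each miR-30 guide strand (down the page) on each of the 12 arrays (across, by group). All 5 members reach 100% on the 3 arrays given 5x2 Gy, and only miR-30b-5p is above 50% on most of the other arrays.

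The signal of miR-30b-5p, read on the brighter of its 2 probes, was the most often measurable of the family. That probe gave 202, 202 and 161 signal units on the 5x2 Gy arrays, against 35.8, 9.70 and 84.3 on the control arrays. It gave 31.0, 130 and 41.1 units after 2 Gy and 54.3, 38.8 and 125 units after 10 Gy. Every 5x2 Gy array lay above all other arrays before scaling. Divided by brightness, the probe stood at 18.6, 18.3 and 16.0% of the percentile after 5x2 Gy, against 10.4, 8.79 and 12% in control. The scaled values were 9.79, 14.5 and 12.7% after 2 Gy and 14.0, 12.6 and 14.4% after 10 Gy. Group means of the scaled signal ran 10.4 ± 1.6% in control, 12.3 ± 2.4% after 2 Gy, 13.7 ± 0.92% after 10 Gy and 17.6 ± 1.4% with the fractionated 5x2 Gy (SD, n = 3 each). The 2 Gy values overlapped those of control and of 10 Gy, whereas those of 5x2 Gy stood clear of the 10 Gy values and the 10 Gy values stood clear of control.

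The comparison of the fractionated dose with control asked how miRNA levels differed after 10 Gy in fractions. After division by brightness, miR-30b-5p was higher on the 5x2 Gy arrays than on the control arrays. Its level, a log2 value averaged over both of its probes, was -3.29 ± 0.06 after 5x2 Gy and -3.67 ± 0.11 in control (SD, n = 3 each). The difference was 0.39 (SE 0.08, 95% interval 0.21 to 0.57), with a limma adjusted p of 0.0150 over the 118 tested entries. Its second probe was under the floor on all 12 arrays, the floor being a minimum of 5.98% of brightness given to dimmer values, so averaging it in reduced the difference. The brighter probe was also fitted alone with the floor set 4 times lower, a setting chosen after the values were seen. There the difference was 0.77 (SE 0.16, interval 0.41 to 1.13), 1.71-fold, with a limma adjusted p of 0.0121. That probe was not detected on control replicate 2, which gave the lowest control value, 8.79% of brightness. The 1.71-fold thus rests in part on a signal that was not above background. The call was lost with slide as a block, where the difference was 0.33 and the limma adjusted p 0.328. It was also lost without 5x2 Gy replicate 1 (adjusted p 0.0597) or replicate 2 (0.0684), in limma fits of the level averaged over both probes. Slide and dose cannot be fully told apart here, since control had no array on slide 2 and 5x2 Gy none on slide 1.

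miR-30c-5p gave the family's lowest adjusted p, on values that were largely not measured above background. Its brighter probe gave 76.4, 82.4 and 70.8 signal units after 5x2 Gy, against 13.8, 3.77 and 25.3 in control. It gave 12, 36.2 and 11.4 units after 2 Gy and 15.6, 14.0 and 45.8 units after 10 Gy. The 5x2 Gy arrays gave the 3 highest signals. As a share of brightness these were 7.02, 7.48 and 7.05% after 5x2 Gy, against 3.99, 3.42 and 3.60% in control. The shares were 3.81, 4.04 and 3.53% after 2 Gy and 4.02, 4.56 and 5.28% after 10 Gy. The 3 fractionated arrays lay above the other 9, and the next highest was 10 Gy replicate 3, from the same slide. The fitted level was -3.80 ± 0.05 after 5x2 Gy, while the 9 other arrays were all set to the floor of -4.06. The difference from control was 0.26 (SE 0.02, limma adjusted p 8.93e-05), with an error that is small because the floored values do not vary. By the rule of more than 50% of spots, the probe was detected on 0 of 3 control arrays. On control replicate 3 exactly 50% of its spots were well above background, and Agilent's own gene-level call marked miR-30c-5p as detected there. Against the lowest signal detected on each control array, taken as no lower than the floor and -3.17 on average, the 5x2 Gy mean was 0.63 lower, a difference of -0.63, so no fold is given and the arrays do not show by how much it differed. On the brighter probe with the floor 4 times lower, the fitted log2 difference was 0.97 (SE 0.12, interval 0.71 to 1.23, limma adjusted p 0.000473). It sets measured signals against control signals that were not detected, so it is not an estimate of the change. In that setting it was 0.67 with slide as a block (limma adjusted p 0.132), and 0.83 (limma adjusted p 0.0040) once log2 array brightness entered the fit.

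miR-30e-5p had higher values after 5x2 Gy and did not pass the test. Its brighter probe gave 106, 107 and 87.8 signal units after 5x2 Gy, against 26.2, 5.98 and 52.2 in control. The values were 14.9, 80.5 and 17.1 units after 2 Gy and 20.0, 13.5 and 67.3 units after 10 Gy. The 3 highest signals were again those of the 5x2 Gy arrays. Relative to brightness the 5x2 Gy arrays stood at 9.74, 9.68 and 8.74%, against 7.58, 5.42 and 7.43% in control. The shares were 4.72, 8.97 and 5.28% after 2 Gy and 5.15, 4.41 and 7.76% after 10 Gy. The 5x2 Gy arrays were clear of control and 10 Gy but not of 2 Gy replicate 2, a bright array. The difference from control was 0.43 (SE 0.18, interval 0.02 to 0.84, limma adjusted p 0.150), and with slide as a block it was 0.06.

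miR-30a-5p, whose mature strand is a single base from that of miR-30e-5p, showed no such separation of the groups after division by brightness. Its brighter probe gave 67.3, 71.7 and 61.1 signal units after 5x2 Gy, against 22.9, 5.25 and 39.2 in control. The values were 15.2, 40.9 and 14.8 units after 2 Gy and 17.9, 20.6 and 54.9 units after 10 Gy. Before scaling, the 5x2 Gy arrays gave the 3 highest signals here too. Relative to brightness, control replicate 1 (6.61%) and 10 Gy replicate 2 (6.71%) were above all 5x2 Gy arrays, which stood at 6.19, 6.51 and 6.09%. The group means were 5.64 ± 0.93% in control, 4.65 ± 0.14% after 2 Gy, 5.88 ± 1.12% after 10 Gy and 6.26 ± 0.22% with the fractionated 5x2 Gy (SD, n = 3 each). The difference between 5x2 Gy and control was 0.01 (interval -0.05 to 0.07, limma adjusted p 1), with 6 of the 12 arrays at the floor. With the brighter probe and the lower floor it was 0.16 (interval -0.19 to 0.51, limma adjusted p 0.478).

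miR-30d-5p lay at the floor on all 12 arrays, so its fitted difference was 0 in every comparison and says nothing about dose. The brighter of its probes gave 58.8, 50.9 and 55.0 signal units after 5x2 Gy, against 16.5, 1.67 and 31.5 in control. The values were 13.4, 36.3 and 13.9 units after 2 Gy and 19.8, 11.4 and 38.6 units after 10 Gy. In every member, then, the 3 highest signals before scaling were those of the 5x2 Gy arrays, which were also the brightest. As a share of brightness the means were 3.59 ± 1.81% in control, 4.19 ± 0.13% after 2 Gy, 4.42 ± 0.69% after 10 Gy and 5.17 ± 0.48% with the fractionated 5x2 Gy (SD, n = 3 each). Control replicate 2, at 1.51%, carried most of the control group's spread, and control replicate 1 (4.78%) lay above 5x2 Gy replicate 2 (4.62%). On the brighter probe with the floor 4 times lower, the difference from control was 0.69 (SE 0.36, interval -0.11 to 1.49, limma adjusted p 0.180).

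**Figure D2:**
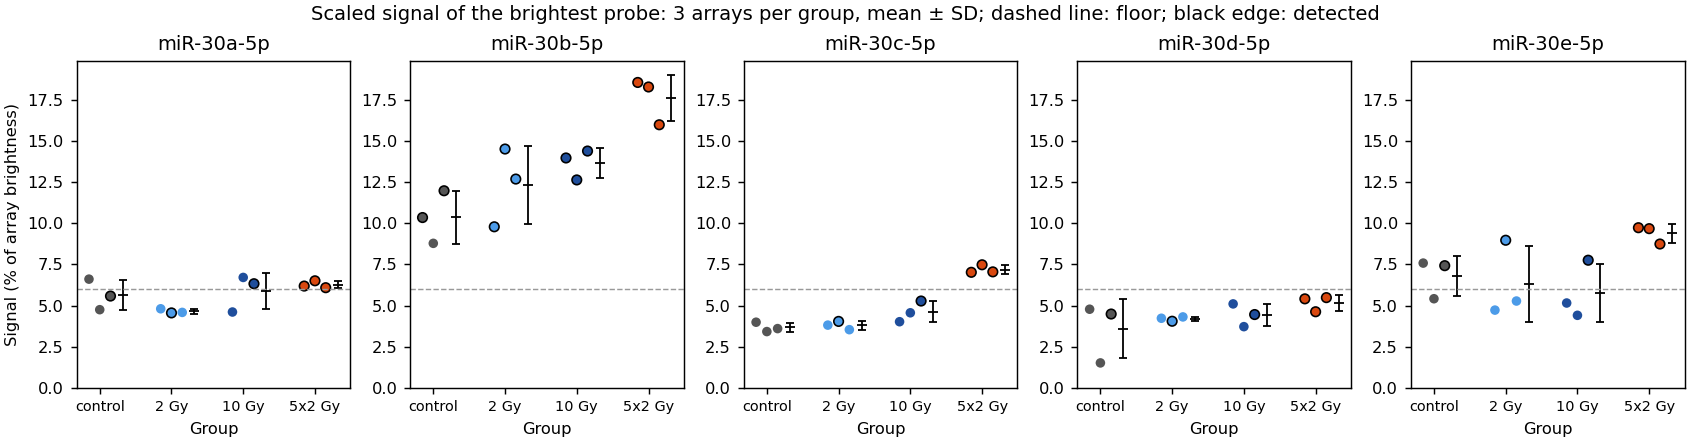
Signal of each member's brightest probe as a percentage of array brightness (vertical axis) by group (horizontal axis), with 3 arrays per group as points, their mean ± SD beside them, black edges where the probe was detected, and the floor of 5.98% as a dashed line. The 5x2 Gy points of miR-30b-5p and miR-30c-5p stand above all other arrays, whereas those of miR-30a-5p and miR-30d-5p mix with the other groups.

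Counted over the family, 2 of 5 members passed the test between 5x2 Gy and control, miR-30b-5p and miR-30c-5p, both higher. Of all 118 tested entries 15 passed, all higher (12.7%). The pass of miR-30c-5p gives no support of its own, since it was tested only through its detection in the 5x2 Gy group and its other arrays were all at the floor. The fitted differences of the 5 members ran from 0 to 0.43 with a median of 0.26, that of miR-30c-5p, beside a median of 0.00 over the 118. Groups did not overlap, with 5x2 Gy higher, in 3 members (miR-30b-5p, miR-30c-5p and miR-30e-5p), and in 28% of the tested entries. All members but miR-30b-5p entered the test through the 5x2 Gy group, as did 51 of the 118 entries. That filter favours higher values there, so the family's median and separations give no support of their own. With the brighter probe and lower floor the same pair of members passed. In that fit 18.6% of tested entries passed, 13.6% as higher and the rest as lower, and the median of all entries was 0.23.

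The comparison of 5x2 Gy with 10 Gy set the same total dose in fractions against a single exposure. Here 1 of 5 members passed, miR-30c-5p, and 2.54% of the tested entries passed, all higher. Its difference was 0.26 (SE 0.02, limma adjusted p 8.93e-05), with all 3 of the 10 Gy arrays at the floor, and the same limit of filter and floor holds for it. On its brighter probe with the lower floor the fitted log2 difference was 0.65 (SE 0.12, interval 0.38 to 0.91), with a limma adjusted p of 0.0148. The probe was detected on 1 of the 3 arrays given 10 Gy, so no fold is given. That call was lost without 10 Gy replicate 1 (limma adjusted p 0.0714), 5x2 Gy replicate 1 (0.0605), 5x2 Gy replicate 2 (0.0728) or 5x2 Gy replicate 3 (0.0698), and with slide as a block (0.554). miR-30b-5p differed by 0.18 (interval 0.00 to 0.36, limma adjusted p 0.312) and miR-30e-5p by 0.52 (interval 0.11 to 0.93, limma adjusted p 0.229). Groups did not overlap in these 3 members, with 5x2 Gy higher, as in 25.4% of the tested entries. Of the 3, miR-30c-5p and miR-30e-5p had entered the test through the 5x2 Gy group. The differences of miR-30a-5p and miR-30d-5p were -0.01 and 0.

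Only slide 2 held both of these groups, with 1 array of 10 Gy. On it the brighter probe of miR-30c-5p stood at 7.02 to 7.48% of brightness on the 5x2 Gy arrays, against 5.28% on 10 Gy replicate 3. For miR-30b-5p the shares were 16.0 to 18.6% after 5x2 Gy, against 14.4% after 10 Gy, and for miR-30e-5p 8.74 to 9.74%, against 7.76%. For miR-30d-5p they were 4.62 to 5.48%, against 4.45%. In each of these 4 members all 3 arrays given 5x2 Gy were above the lone array given 10 Gy. Of these, miR-30c-5p, miR-30d-5p and miR-30e-5p had entered the test through the 5x2 Gy group, a filter that favours higher values there. How many of all tested entries stood the same way on slide 2 was not counted, so these positions give no support of their own. For miR-30a-5p 1 of 3 was, with 6.09 to 6.51% after 5x2 Gy, against 6.33%. In a fit within slide 2 the differences were 0.14 for miR-30b-5p, 0.26 for miR-30c-5p and 0.27 for miR-30e-5p. The lone 10 Gy array gives no spread of its own.

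After the single doses no member passed the limma test. Between 10 Gy and control 0 of 5 members passed, beside 0.847% of tested entries (1 entry, higher), and 24 of 118 entries had an unadjusted p under 0.05. By fitted level, miR-30b-5p was the 1 member whose groups did not overlap, with 10 Gy higher, as in 8.47% of the tested entries. It differed by 0.20 (SE 0.08, interval 0.02 to 0.38, limma adjusted p 0.236). Within slide 1, which holds 2 of the 10 Gy arrays and all control arrays, that difference was 0.18 (limma adjusted p 0.452). The differences of miR-30a-5p and miR-30e-5p were 0.02 and -0.09, with a limma adjusted p of 0.815 and 0.889, and those of miR-30c-5p and miR-30d-5p were 0 because all their values stood at the floor. On its brighter probe, miR-30c-5p stood at 4.02 to 5.28% of brightness after 10 Gy, above the 3.42 to 3.99% of control. All of these shares were under the floor of 5.98%, and the 5.28% came from 10 Gy replicate 3, on slide 2. How many tested entries stood apart on their brightest probe was not counted. With the lower floor the fitted difference of miR-30c-5p was 0.33 (interval 0.06 to 0.59, limma adjusted p 0.175), on arrays where it was mostly not detected.

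Between 2 Gy and control, 0 of 5 members and 0% of the 118 entries passed the limma test, with 11 entries at an unadjusted p under 0.05. miR-30b-5p differed by 0.12 (interval -0.06 to 0.30, limma adjusted p 0.640). The differences of miR-30a-5p and miR-30e-5p were both -0.02, and that of miR-30e-5p had an interval of -0.43 to 0.39. Between 10 Gy and 2 Gy, 0 of 5 members and 0% of the entries passed, with 2 entries at an unadjusted p under 0.05, and the members ranged from -0.07 (miR-30e-5p) to 0.08 (miR-30b-5p), all with a limma adjusted p of 1. In neither of these comparisons did the groups of any member stand apart with the first higher, as they did in 4.24% of tested entries each time. These intervals leave room for differences in either direction.

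Each member's signal followed the brightness of its array. On log2 scales over the 12 arrays, Pearson's r between the brighter probe's signal and array brightness was 0.97 to 0.99, as a description, since both come from the same array and the groups differ in brightness. The slope was 1.09 for miR-30a-5p, 1.29 for miR-30b-5p, 1.30 for miR-30c-5p, 1.36 for miR-30d-5p and 1.33 for miR-30e-5p. A slope of 1 would mean that dividing by brightness removes the relation, and all 5 slopes were above it. The slopes are descriptions as well, given without an error. They include arrays on which a member was not detected, among them the dimmest, control replicate 2, where no member was. Brightness moved with the result for miR-30b-5p. With log2 brightness as a covariate, its difference between 5x2 Gy and control was 0.22 (limma adjusted p 0.0497), and 0.45 (limma adjusted p 0.0554) on the brighter probe with the lower floor. On the bright arrays of the other groups, which had 703, 897 and 867 units, its brighter probe stood at 12% in control, 14.5% after 2 Gy and 14.4% after 10 Gy, each below the 16.0 to 18.6% seen after 5x2 Gy. miR-30c-5p stood at 3.60, 4.04 and 5.28% on those same arrays, each below 7.02%. Those arrays were still dimmer than the 5x2 Gy arrays, which had 1004 to 1102 units. The part of brightness in these gaps was not tested.

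**Figure D3:**
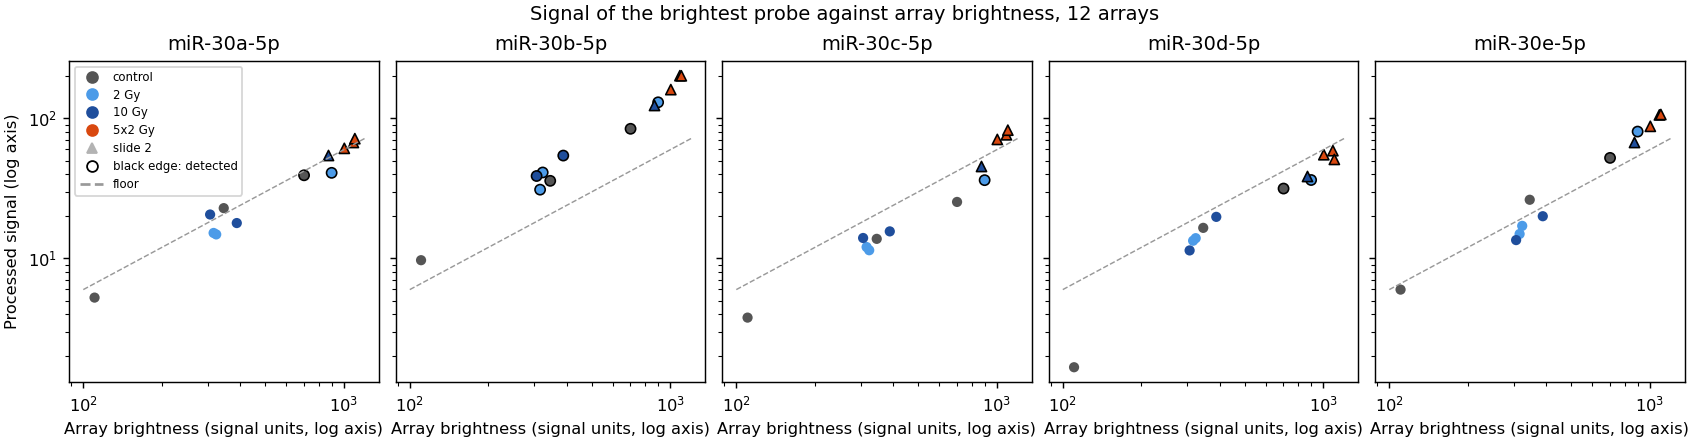
Processed signal of each member's brightest probe (vertical, log axis, signal units) against array brightness (horizontal, log axis, signal units) on 12 arrays, coloured by group, with triangles for slide 2, black edges where the probe was detected, and the floor as a dashed line. The arrays given 5x2 Gy lie at the bright end, between 1004 and 1102 units, and the members climb with brightness at slopes of 1.09 to 1.36.

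The members' scaled signals varied together unevenly. Over the 12 arrays Pearson's r between brighter probes, after dividing by brightness, was 0.86 for miR-30b-5p with miR-30c-5p and 0.33 for miR-30a-5p with miR-30d-5p, which were the extremes of the 10 pairs. The pair from neighbouring genes on chromosome 15, miR-30b-5p with miR-30d-5p, had 0.63. The near-identical miR-30a-5p and miR-30e-5p had 0.40. All pairs share arrays, scaling and brightness. Every member but miR-30b-5p was detected on 6 arrays or fewer, so each r includes signals that were not above background. The values of r therefore do not show how alike the members' RNA levels were.

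Of the members only miR-30b-5p exceeded the floor on every array, as did 70 other tested entries. The 3 whose log2 levels were most like its own over the 12 arrays were miR-25-3p (r = 0.92), miR-26a-5p (r = 0.88) and miR-29c-3p (r = 0.86). Their differences between 5x2 Gy and control were 0.40, 0.44 and 0.72, set beside 0.39 for miR-30b-5p. These correlations are over arrays that differ in group and brightness. The 3 entries were picked by likeness over these same arrays, so the choice itself favours similar differences.

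The passenger strands did not meet the rule for detection. The entries miR-30a-3p, miR-30b-3p, miR-30c-1-3p, miR-30c-2-3p and miR-30e-3p were detected on 0 of 12 arrays by that rule, although Agilent's gene-level call marked miR-30b-3p on 1 array, 2 Gy replicate 3. By the same rule, 0 of 12 arrays detected miR-384-5p, the guide with the same seed and a different remainder. As a measure of array background, 6 entries known to read high on such arrays (among them miR-690, miR-709 and miR-494-3p) were set beside the family. Their differences between 5x2 Gy and control ran from -1.06 to -0.05, all 6 negative with 0 passing. Between 5x2 Gy and 10 Gy they ran from -0.20 to 1.03, with 1 of 6 negative, a median of 0.20 and 0 passing. The part of this in the family's values was not tested.

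**Figure D4:**
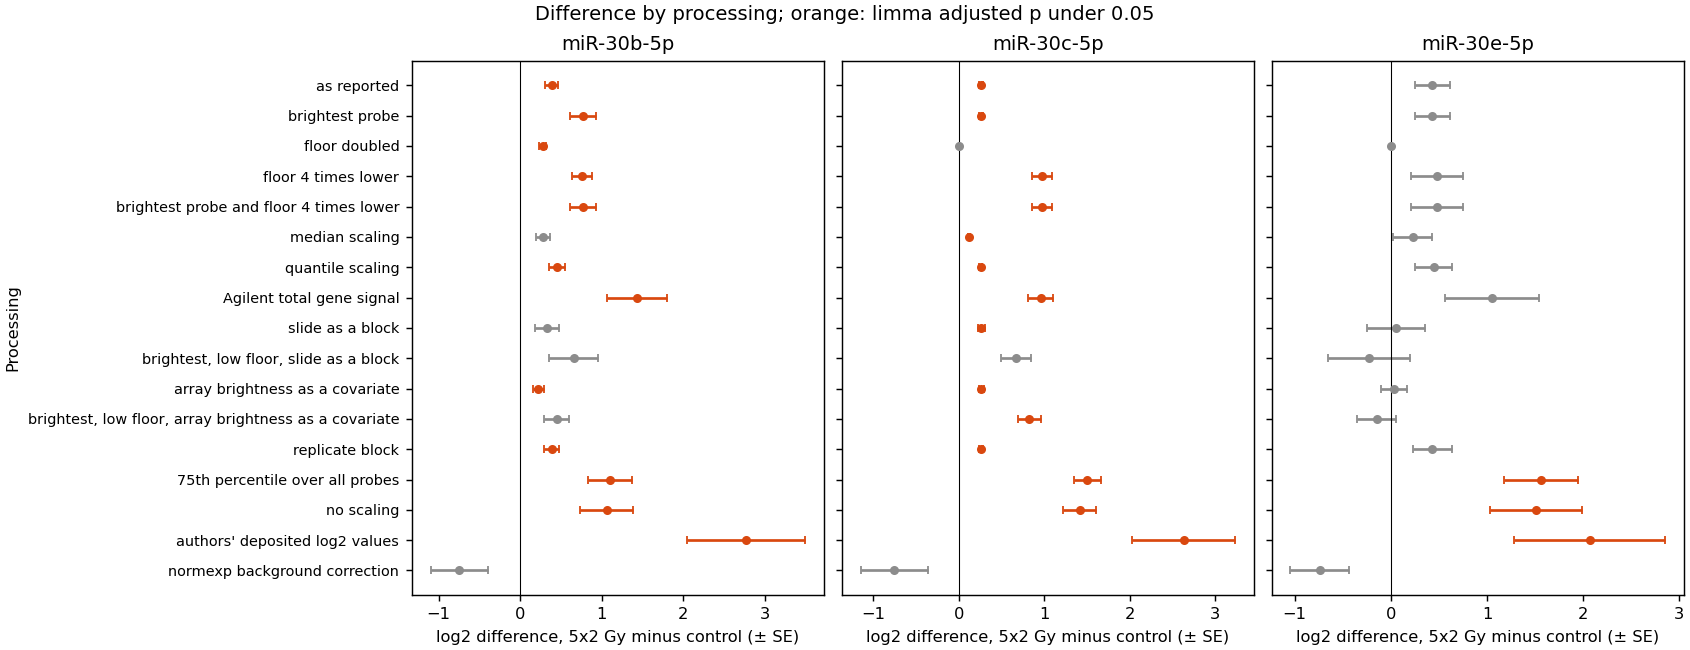
Log2 difference between 5x2 Gy and control (horizontal axis, ± SE) of miR-30b-5p, miR-30c-5p and miR-30e-5p under each way of processing (vertical axis), orange where the limma adjusted p was under 0.05. For miR-30b-5p the reported 0.39 becomes 0.33 with slide as a block, 0.22 with brightness as a covariate and -0.74 under normexp background correction.

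The differences changed with the scaling and background correction. The reported difference between 5x2 Gy and control for miR-30b-5p became 1.10 with the percentile taken over all probes and 1.06 with no scaling, where the median of all tested entries was itself 1.42 and 1.41. Both values of miR-30b-5p were below these medians. They average in its dimmer second probe, and the brighter probe alone was not fitted under these scalings. So they do not rank miR-30b-5p against the typical entry. Under normexp background correction with an offset of 50, the differences were -0.74 for miR-30b-5p, -0.75 for miR-30c-5p, -0.74 for miR-30e-5p and -1.04 for miR-30a-5p. The direction of each thus turned. With normexp the median of all tested entries was itself -0.25 for 2 Gy minus control and -0.30 for 10 Gy minus control. For 5x2 Gy minus control the turn was not set against that median, so it is not read as particular to the members. With the median in place of the 75th percentile, the difference of miR-30b-5p was 0.28 and did not pass the limma test (adjusted p 0.115).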

How the data were processed

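Spot intensity, on a linear scale, comes from the authors' deposited scanner output, for which the submitters' processing notes name Agilent Feature Extraction, version 10.7.3.1. Spot flags are 0 or 1, per the file headers. The log2 values of the authors' deposited table equalled the log2 processed signal, with signals under 1 set to 1, plus 1 shift per array (-0.27 to 0.51, equality within 0.001; column mean 1.98, medians -0.19 to 1.14).

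Control and outlier spots were dropped (0 spots were saturated) and a probe's spots averaged. Signals were divided by array brightness, floored at 0.0598 of it (log2 -4.06), and log2 was taken. An entry averages those probes that were detected on 3 or more arrays, and was tested if at least 1 group had it on all 3 arrays. Levels of different probes are not compared. Comparisons used limma 3.58.1 (R 4.3.3) over the 12 arrays together (8 residual and 0.45 prior degrees of freedom, no covariates; two-sided, Benjamini-Hochberg, threshold 0.05). The code was tested on simulated data. Named were the 5 members, the other strands of their genes, entries with their seed, the 3 entries most like each member above the floor throughout, and the background list. Members and lists were chosen with earlier results of these data known. The number of arrays limits the precision. Identical arrays were not found (0 pairs), and the table had 0 columns of other samples. The files hold no mean signal, so normexp used median signals.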

Additional observations from a re-analysis of the deposited data

Results flagged for a closer look

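The 3p strand of miR-30b was outside the comparisons, since none of its probes met the rule for detection on any array. Agilent's own gene-level call, deposited in the same files, marked it as detected on 1 array, 2 Gy replicate 3, with a total gene signal of 6.42 units. On the other 11 arrays, the control arrays among them, it was listed as not detected at 0.1 units. It was singled out because Agilent's call marked a signal in data not used for the comparisons. The 0.1 units go with a call of not detected and are not a measured level. The brightest probe of miR-30b-3p gave 19.3 units on 2 Gy replicate 3, against 14.9, 8.25 and 15.3 on the control arrays. Relative to brightness these were 5.97%, against 4.31, 7.47 and 2.18%, so a level above control was not shown.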

How the results depend on the processing

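With the percentile taken over all probes, 102 entries and 5 members passed between 5x2 Gy and control and 90 entries and 5 members between 5x2 Gy and 10 Gy; with no scaling these were 86 and 5, and 24 and 2, while 10 Gy minus control had 0 entries. These scalings turned miR-30e-5p to 0.072 and 0.21 (2 Gy minus control) and to 0.053 and 0.12 (10 Gy minus control), miR-30a-5p to 0.62 and 0.52 (5x2 Gy minus 10 Gy), and, with no scaling, miR-30a-5p to 0.0097 (2 Gy minus control). The authors' deposited values gave 84 entries and 4 members (5x2 Gy minus control), 0 and 0 (5x2 Gy minus 10 Gy) and 0 entries (10 Gy minus control), and turned miR-30e-5p to 0.36 (2 Gy minus control) and 0.34 (10 Gy minus control) and miR-30a-5p to 1.42 (5x2 Gy minus 10 Gy).

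Median scaling gave 4 entries and 1 member (5x2 Gy minus control) and 1 entry (5x2 Gy minus 10 Gy), with miR-30a-5p at -0.0072 (10 Gy minus control) and -0.046 (5x2 Gy minus control). Quantile scaling gave 2 entries (2 Gy minus control), 6 entries and 1 member (10 Gy minus control), 7 (5x2 Gy minus control) and 1 (5x2 Gy minus 10 Gy), with miR-30e-5p at 0.0080 (2 Gy minus control). Normexp, run on median signals, gave 5 entries and 0 members (5x2 Gy minus control) and 0 and 0 (5x2 Gy minus 10 Gy). Beside the values above for 5x2 Gy minus control (-1.04, -0.74, -0.75 and -0.74), it turned miR-30b-5p to -0.26 (2 Gy minus control), -0.27 (10 Gy minus control), -0.47 (5x2 Gy minus 10 Gy) and -0.0088 (10 Gy minus 2 Gy), miR-30a-5p to -0.35 (10 Gy minus control), and miR-30c-5p and miR-30e-5p to -0.44 and -0.33 (5x2 Gy minus 10 Gy). The cause was not tested for any of these scalings.

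The doubled floor gave 7 entries and 1 member (5x2 Gy minus control) and 1 and 0 (5x2 Gy minus 10 Gy); the floor 4 times lower gave 25 entries (5x2 Gy minus control) and 2 members (5x2 Gy minus 10 Gy), with miR-30a-5p at -0.11 (10 Gy minus control) and 0.37 (5x2 Gy minus 10 Gy). The brightest probe gave 1 entry (2 Gy minus control) and 2 (10 Gy minus control), and together with the lower floor it put miR-30a-5p at 0.11 (5x2 Gy minus 10 Gy). Agilent's total gene signal gave 32 entries (5x2 Gy minus control) and 2 (10 Gy minus control), with miR-30a-5p at 0.41 (5x2 Gy minus 10 Gy) and miR-30e-5p at 0.060 (10 Gy minus 2 Gy). With all 576 entries tested 6 entries and 1 member passed (5x2 Gy minus control), 1 (5x2 Gy minus 10 Gy) and 0 (10 Gy minus control); with only entries detected on all 12 arrays, which leaves out every member, 6 passed (5x2 Gy minus control) and 0 (5x2 Gy minus 10 Gy). A fit of only the 2 groups compared gave 2 entries (10 Gy minus control).

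With slide as a block 1 entry and 1 member passed (5x2 Gy minus control), 1 entry (5x2 Gy minus 10 Gy) and 0 (10 Gy minus control); within slide 1, 0 passed (10 Gy minus control), and within slide 2, 9 entries and 0 members (5x2 Gy minus 10 Gy). On the brightest probe with the lower floor, the slide block gave 1 entry and 0 members (5x2 Gy minus control), 0 and 0 (5x2 Gy minus 10 Gy) and 2 (10 Gy minus control), with miR-30a-5p at -0.0087 (10 Gy minus control) and -0.025 (5x2 Gy minus control) and miR-30e-5p at -0.23 (5x2 Gy minus control). With brightness as a covariate 6 (2 Gy minus control), 26 (10 Gy minus control) and 28 entries (5x2 Gy minus control) passed. On the brightest probe with the lower floor these were 12 (2 Gy minus control) and 32 entries and 1 member (10 Gy minus control), with 1 member (5x2 Gy minus control), miR-30a-5p at 0.030 (5x2 Gy minus 10 Gy) and miR-30e-5p at -0.15 (5x2 Gy minus control).

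With 1 array left out, in both ways of summarising probes, entries passing ranged from 0 to 3 (2 Gy minus control), 0 to 11 (10 Gy minus control), 7 to 23 (5x2 Gy minus control), 1 to 8 (5x2 Gy minus 10 Gy) and 0 to 1 (10 Gy minus 2 Gy), and members from 1 to 2 (5x2 Gy minus control) and 0 to 1 (5x2 Gy minus 10 Gy). For the levels averaged over probes, the 15 entries passing between 5x2 Gy and control became 9 without 10 Gy replicate 2, 8 without 5x2 Gy replicate 1 or 3, and 7 without 5x2 Gy replicate 2. Directions changed for miR-30e-5p at -0.43 to 0.074 (2 Gy minus control) and -0.35 to 0.17 (10 Gy minus 2 Gy), and for miR-30a-5p at -0.065 to 0.22 (10 Gy minus control), -0.0056 to 0.28 (5x2 Gy minus control) and -0.059 to 0.21 (5x2 Gy minus 10 Gy).

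Same-numbered arrays were not shown to pair: their deviations from group means correlated at -0.90 to 0.78, with 6 of 18 pairs over 0.1, beside 15 of 36 differently numbered pairs. With a replicate block, 10 entries and 2 members passed (5x2 Gy minus control), with miR-30b-5p at an adjusted p of 0.0484, and 0 entries passed (10 Gy minus control). With 3 arrays a group, 4 of the 5 members detected on 6 arrays or fewer, and slide bound to dose between control and 5x2 Gy, the signal over background limits what these arrays show of the family.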
